A study of Mus musculus with 7 samples.

Results

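Genes of the astrocyte endfoot, 10 in all, were followed in vascular fragments of mouse brain: Aqp4, Gja1, Gjb6, Slc1a2, Slc1a3, Gfap, Aldh1l1, Kcnj10, Dag1 and Mlc1. They were taken by name, as the probe sets whose platform annotation gives that symbol alone. Each of the 10 genes had 1 such probe set, out of 22180 genes named in this way on the array. The fragments came from adult female mice of 12 weeks, C57BL/6N in the design text and C57BL/6 in the sample labels. The animals had received PDGF-CC (4 arrays) or PBS (3 arrays) by intracerebroventricular (ICV) injection, that is, into the fluid spaces of the brain, 4 hours before they were killed. No transgene or mutation is named for either group. PDGF-CC is a dimeric growth factor that activates PDGFR-alpha and is cleaved into its active form by tissue plasminogen activator. The labels do not say whether each array held a separate mouse, so the p-values cover the spread between these samples only, and part of it may be technical.

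Astrocytes send processes to nearly the whole surface of brain vessels, where they end in flattened endfeet on the outer basement membrane. The endfoot membrane holds the water channel Aqp4 and the potassium channel Kcnj10, anchored to laminin and agrin by the dystroglycan complex, whose core is encoded by Dag1. Connexins join neighbouring endfeet, and transporters of the Slc1 family clear glutamate from the extracellular space. Torn endfeet and their RNA can stay attached when vessels are isolated, so vascular fragments can carry astrocyte transcripts beside those of endothelial and mural cells. Several of the genes are not exclusive to astrocytes: Dag1 is expressed in many cell types, Gja1 also in cells of the vessel wall and meninges, and Kcnj10 also in the oligodendrocyte lineage. In such bulk samples, fewer astrocyte fragments and less RNA per fragment cannot be told apart.

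Values were log2 array values, in which a step of 1 is a doubling. All 10 genes passed the filter on low values, a mean of 4.145, and 13 of 13 brain endothelium markers passed it as well. The filter was the 30th percentile, and 7 of 11 neuron markers also passed it. Gjb6, Aldh1l1 and Gfap were the lowest of the 10, with PBS means of 5.07, 5.32 and 5.67. The mean of the neuron markers that passed was 5.26 to 5.33 in PBS arrays. Whether low values narrowed the differences of these genes was not tested. The mean of the choroid plexus markers was 6.32 to 7.16 after PDGF-CC and 7.23 to 7.58 after PBS, so the groups did not overlap, and that of the microglia markers 9.70 to 9.80 and 9.25 to 9.65, again without overlap, with 6 of 7 markers higher on average after PDGF-CC. The means of the other 8 marker lists overlapped, among them that of the pericyte markers, at 8.69 to 9.19 and 9.0 to 9.32. Even so, 10 of 10 pericyte markers were lower on average after PDGF-CC, with a median difference of -0.26. The part of these shifts in any result for the endfoot genes was not tested. The sample descriptions carry numbers over both groups, with 1, 2, 5 and 6 for PDGF-CC arrays 1 to 4 and 3, 4 and 7 for PBS arrays 1 to 3. What these numbers stand for is not stated in the labels.

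The endfoot genes differed little between PDGF-CC and PBS, by at most 0.20 on the log2 scale, and none passed the test. Of the 10, 0 were called higher and 0 lower by limma at an adjusted p of 0.05, against 0% of the 17734 probe sets tested. At an unadjusted p under 0.05 there were 0 of the 10 by limma, against 6.04% of all probe sets. The PDGF-CC and PBS arrays overlapped for all 10, and 4.3% of all probe sets had groups that did not overlap. Of the 10 differences 5 were positive and 5 negative, with a median of 0.01 on the log2 scale, beside -0.003 over all 15582 genes tested. The differences ran from -0.20 (Gfap) to 0.14 (Kcnj10). The 95% interval of each difference, taken gene by gene, lay within 1.5-fold in either direction for all 10. The intervals were widest for Slc1a3, at 0.77 to 1.46 times the PBS level, and narrowest for Gja1, at 0.82 to 1.0 times.

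**Figure D1:**
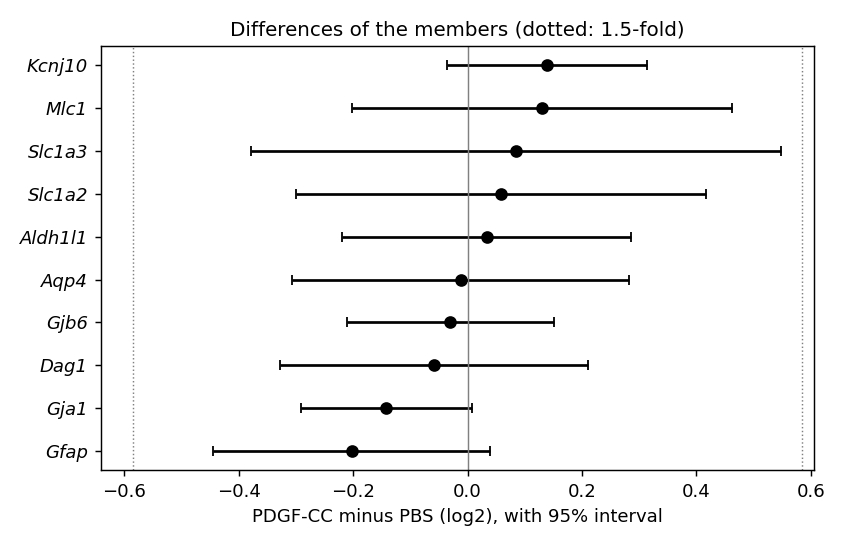
Difference between PDGF-CC (4 arrays) and PBS (3 arrays) for each of the 10 genes, on the log2 scale, with the 95% interval from the limma fit. Every interval spans 0, and all lie between the dotted lines that mark 1.5-fold in either direction.

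Gap junctions and water transport come first among the roles. Gja1 encodes the main connexin of astrocytes. Its values were 8.07, 8.18, 8.17 and 8.12 in PDGF-CC arrays 1 to 4, and 8.37, 8.17 and 8.29 in PBS arrays 1 to 3. The PBS arrays lay higher apart from PBS array 2, which fell inside the narrow PDGF-CC range. The difference was -0.14 ± 0.063 (log2, SE, n = 4 and 3; adjusted p = 0.769 by limma), and it was at the same size within numbers 1 to 4 (-0.14) and within 5 to 7 (-0.15). The groups no longer overlapped for Gja1 once PDGF-CC array 2 or PBS array 2 was left out.

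Gjb6 encodes the second astrocytic connexin. Its values were 5.07, 5.02, 5.03 and 5.03 in PDGF-CC and 4.94, 5.24 and 5.03 in PBS. All PDGF-CC arrays lay between the lowest and the highest PBS array. The difference was -0.03 ± 0.077 (adjusted p = 0.930 by limma). PBS array 2 set the sign, since the difference was 0.06 without it.

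Aqp4, the water channel gene, was at 5.86, 6.43, 6.14 and 6.14 in PDGF-CC and at 6.14, 6.18 and 6.14 in PBS. PDGF-CC array 1 was the lowest and PDGF-CC array 2 the highest of all 7 arrays, while 4 of the remaining arrays held exactly the same deposited value. The spread between arrays was therefore unequal, with an SD of 0.235 in PDGF-CC and 0.023 in PBS. The difference was -0.01 ± 0.12 (adjusted p = 0.984 by limma) and was -0.11 with PDGF-CC array 2 left out and 0.08 with PDGF-CC array 1 left out. Exactly shared values were found for 5 of the 10 genes, Aqp4, Gjb6, Slc1a2, Aldh1l1 and Kcnj10. They were common on these arrays, with 63.6% of the probe sets tested having at least 2 arrays at 1 value, and their origin was not tested.

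Kcnj10, which encodes the inward rectifier Kir4.1 that takes up potassium, had the largest positive difference. It was at 8.16, 8.37, 8.13 and 8.29 in PDGF-CC and at 8.16, 8.09 and 8.04 in PBS. PDGF-CC arrays 2 and 4 lay above every PBS array, and the others overlapped with PBS array 1. The difference was 0.14 ± 0.074 (adjusted p = 0.769 by limma), with 0.14 in the arrays numbered 1 to 4 and 0.17 in those numbered 5 to 7. The groups did not overlap when PBS array 1 was left out, nor did those of 12.4% of all probe sets.

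Dag1, whose product links the endfoot membrane to laminin, was at 7.62, 7.49, 7.71 and 7.89 in PDGF-CC and at 7.63, 7.65 and 7.93 in PBS. PDGF-CC array 4 and PBS array 3 were the high arrays of their groups. The difference was -0.06 ± 0.11 (adjusted p = 0.905 by limma), and it was 0.04 without PBS array 3. Mlc1, a membrane protein of astrocyte junctions around vessels that is mutated in a leukodystrophy with cysts, was at 7.92, 8.18, 8.37 and 8.50 in PDGF-CC and at 8.18, 7.97 and 8.19 in PBS. PDGF-CC held both the lowest array, 1, and the highest, 4. The difference was 0.13 ± 0.14 (adjusted p = 0.827 by limma), and it was 0.04 without PDGF-CC array 4 and 0.24 without PDGF-CC array 1.

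**Figure D2:**
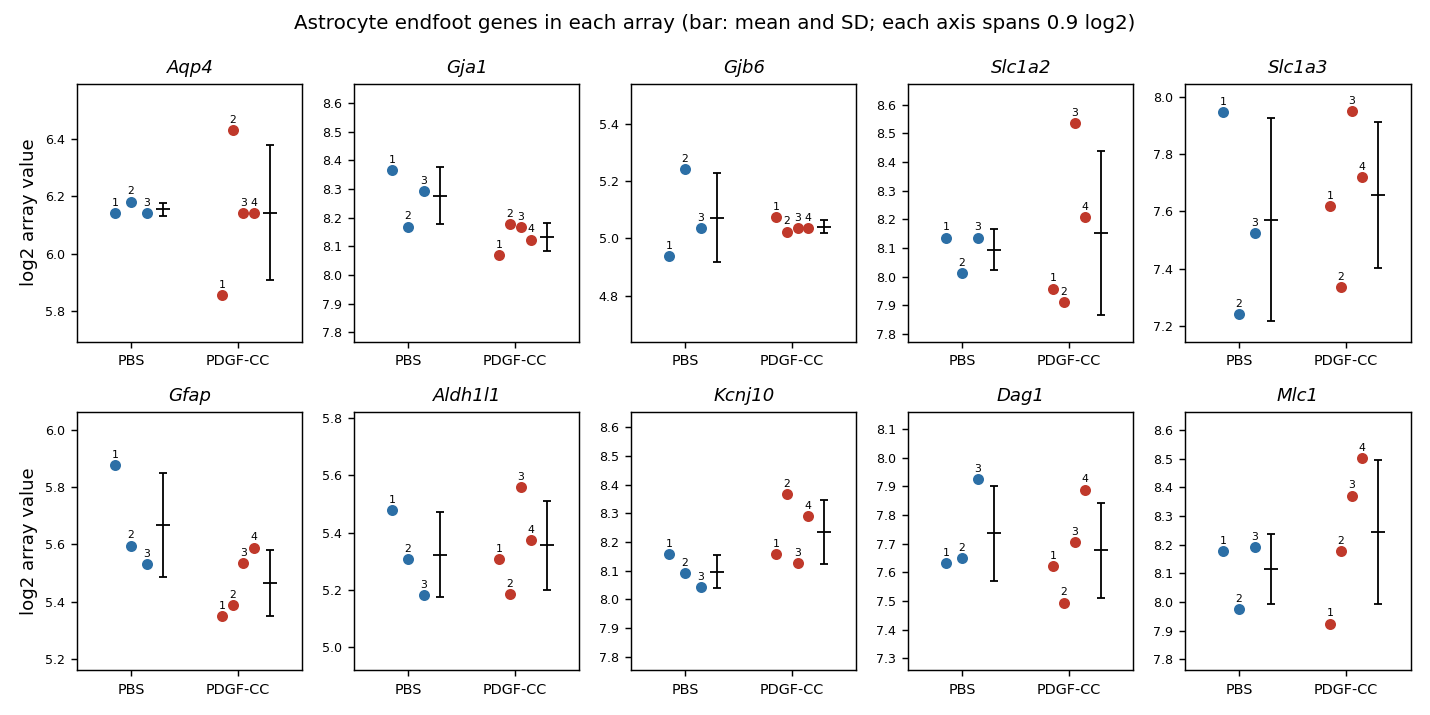
Log2 array value of each of the 10 genes in the 3 PBS arrays (blue) and the 4 PDGF-CC arrays (red), with array numbers beside the points and the mean and SD as a bar. Vertical axes start at different values but all have the same span; for each gene the PDGF-CC and PBS points overlap.

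The glutamate transporters varied more between arrays than between the groups. Slc1a2 encodes GLT-1, the main glutamate transporter of the forebrain. It was at 7.96, 7.91, 8.54 and 8.21 in PDGF-CC and at 8.14, 8.01 and 8.14 in PBS. PDGF-CC arrays 1 and 2 lay below every PBS array, and arrays 3 and 4 above every PBS array. The group difference was 0.06 ± 0.15 (adjusted p = 0.931 by limma), and it was -0.07 without PDGF-CC array 3 and 0.14 without PDGF-CC array 2.

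Slc1a3, which encodes the related transporter GLAST, had values of 7.62, 7.34, 7.95 and 7.72 in PDGF-CC and of 7.95, 7.24 and 7.52 in PBS. Its residual SD, 0.298, was the largest among the 10 genes, beside a median of 0.128 over all probe sets tested. The PBS arrays spanned nearly the whole range, from PBS array 2 at the bottom to PBS array 1 near the top. The difference was 0.09 ± 0.20 (adjusted p = 0.923 by limma), and it was -0.08 without PBS array 2 and 0.27 without PBS array 1.

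Gfap and Aldh1l1 mark the astrocyte as a cell. Gfap encodes the intermediate filament protein that rises in reactive astrocytes, and it had the largest negative difference. It was at 5.35, 5.39, 5.53 and 5.59 in PDGF-CC and at 5.88, 5.60 and 5.53 in PBS. PBS array 1 stood highest, and PDGF-CC arrays 3 and 4 lay between PBS arrays 3 and 2. The difference was -0.20 ± 0.10 (adjusted p = 0.769 by limma). It was -0.10 with PBS array 1 left out. With PBS array 3 left out it was -0.27, and the groups did not overlap, nor did those of 11.9% of all probe sets. Aldh1l1, a folate enzyme found throughout astrocytes, was at 5.31, 5.19, 5.56 and 5.37 in PDGF-CC and at 5.48, 5.31 and 5.18 in PBS. The ranges of the groups nearly coincided. The difference was 0.03 ± 0.11 (adjusted p = 0.946 by limma), and it was -0.03 without PDGF-CC array 3, -0.04 without PBS array 3 and 0.11 without PBS array 1.

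Within the PDGF-CC group, arrays with later description numbers were higher for most of the genes. In 6 of the 10 genes (Slc1a2, Slc1a3, Gfap, Aldh1l1, Dag1 and Mlc1) PDGF-CC arrays numbered 5 and 6 were both above those numbered 1 and 2, against 21.1% of all probe sets tested, and in 0 of the 10 both were below. These pairs of arrays were compared with the pattern in view, so the count is a description only. The mean over numbers 5 and 6 exceeded that over 1 and 2 by 0.44 for Slc1a2, 0.39 for Mlc1 and 0.36 for Slc1a3, on the log2 scale. These gaps were larger than the treatment differences of the same genes. The mean of the 10 genes, each centred on its own mean, was -0.12 and -0.06 in numbers 1 and 2 and 0.10 and 0.08 in numbers 5 and 6. The PBS arrays gave 0.07, -0.06 and -0.01. PDGF-CC array 1 was the lowest array for 4 of the 10 genes and PDGF-CC array 3 the highest for 3.

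**Figure D3:**
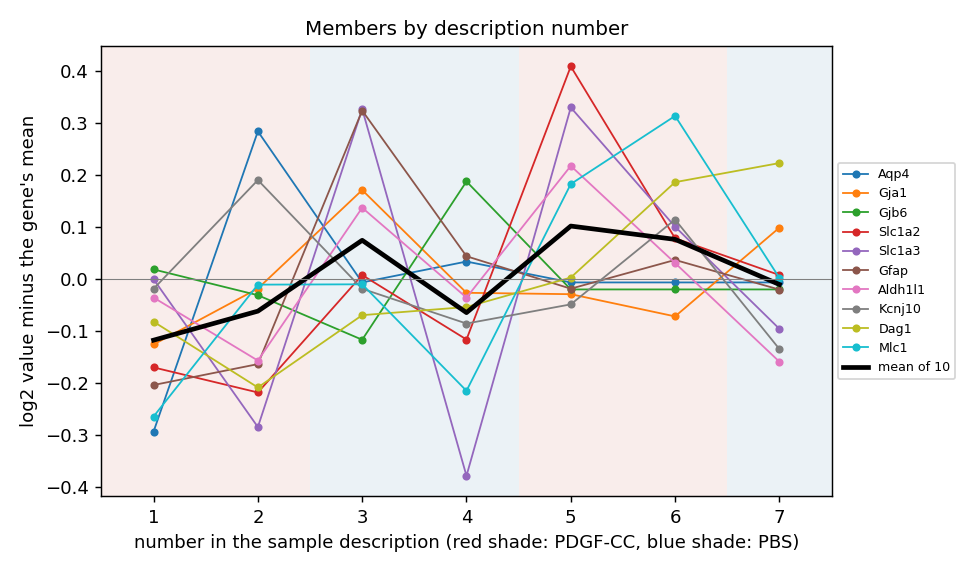
Log2 value of each of the 10 genes minus its own mean, by the number in the sample description, with the mean of the 10 in black; red shading marks PDGF-CC arrays and blue shading PBS arrays. The black line is lowest at number 1 (-0.12) and highest at number 5 (0.10), both of them PDGF-CC arrays.

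Within numbers 1 to 4, with 2 arrays a group, 9 of the 10 differences were negative and 1 was positive. Their mean was -0.09, and the means of the 6 other astrocyte lists described below ran from -0.14 to -0.08. Within 5 to 7, with 2 PDGF-CC arrays and 1 PBS array, 6 were positive, 2 negative and 2 exactly 0. Those at 0 were Aqp4 and Gjb6, for which PDGF-CC arrays 3 and 4 and PBS array 3 held the same deposited value. The mean of the 10 in this part was 0.10, and those of the other astrocyte lists ran from -0.02 to 0.13. For 5 genes the signs were opposite. Slc1a2 was at -0.14 in the first part and 0.24 in the second, Slc1a3 at -0.12 and 0.31, Aldh1l1 at -0.15 and 0.28, Mlc1 at -0.02 and 0.25, and Gfap at -0.37 and 0.03. A test of the difference between the parts, added after seeing the data, called 0 of the 10 at an adjusted p of 0.05 and 0 of 17734 probe sets by limma. At an unadjusted p under 0.05 it gave 0 of the 10, against 6.28% of all probe sets. The second part holds 1 PBS array, which the fit takes to vary as the other groups do, and the split was chosen with the pattern in view, so these counts of 0 show little. In each part the PDGF-CC numbers came before the PBS numbers, so treatment and order within a part cannot be told apart.

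Some marker lists shared this array pattern and others did not. The mean of the 23 astrocyte identity genes tested was 6.82 and 6.90 in PDGF-CC arrays 1 and 2 (numbers 1 and 2) and 7.04 and 7.03 in arrays 3 and 4 (numbers 5 and 6), so it was lower in the first pair, as were the endfoot genes. Brain endothelium markers moved the same way with means of 10.81, 10.86, 10.93 and 10.97, and pericyte markers with 8.69, 8.80, 9.07 and 9.19. PDGF-CC arrays 3 and 4 were both above arrays 1 and 2 for 13 of 23 astrocyte identity genes, 9 of 13 endothelial and 10 of 10 pericyte markers, against 21.1% of all probe sets. Among other astrocyte lists described below the count was 7 of 14 for anchoring and 6 of 10 for glutamate and ion handling. For other connexins it was 3 of 7 and for secreted genes 3 of 11. The count was 4 of 5 for smooth muscle markers, but 3 of 20 for reactive astrocyte genes. For microglia it was 2 of 7, for neurons 2 of 7, for oligodendrocytes 1 of 7 and for fibroblasts 1 of 5. It was 0 for the 4 oligodendrocyte precursor, 8 choroid plexus and 4 ependyma markers. The part of vessel content in the endfoot values was not tested. With arrays shifted to equal means of the endothelial markers, the median of the 10 PDGF-CC minus PBS differences was 0.04. Of these, 0 were called with the shift and 0 without it. That fit compares the groups, so it gives no value for the pattern within the PDGF-CC arrays.

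**Figure D4:**
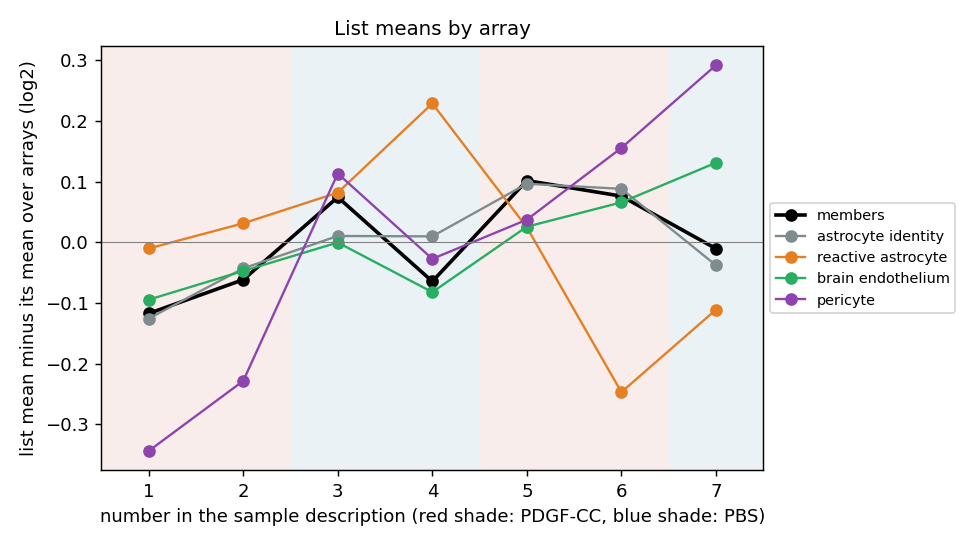
Mean log2 value of the 10 endfoot genes and of 4 marker lists in each array, minus the list's mean over the 7 arrays, by the number in the sample description; shading marks the groups as red for PDGF-CC and blue for PBS. The endfoot, astrocyte identity, endothelial and pericyte lines are all lower at numbers 1 and 2 than at 5 and 6, and the reactive astrocyte line is lowest at number 6.

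Among the 15572 other genes, those whose array pattern came nearest to the mean of the 10 were Ramp2, Hmgb1, Dazap2, Norad and Gm12739. Likeness was measured as the root mean square difference of centred log2 values over the 7 arrays. It was 0.022 for Ramp2, which encodes a partner of the adrenomedullin receptor and is abundant in endothelium, and 0.030 for Hmgb1, a chromatin protein gene. The other three lay between 0.030 and 0.032, and the median over all genes compared was 0.138. These genes were picked as the nearest, so values below the median follow from the choice.

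Genes that work beside the 10 in the endfoot were described from 6 lists, with 85 of 93 entries tested, and limma called 0 of them at an adjusted p of 0.05. For anchoring, in the dystrophin complex, its matrix ligands and partners of Mlc1, 5 of 14 differences were positive and 9 negative, with a median of -0.03. All probe sets gave 6.04% at an unadjusted p under 0.05 by limma, the share to set beside each list here and below. The anchoring list had 1 such gene, Dtnb, which encodes beta-dystrobrevin. It was at 6.28, 6.75, 6.40 and 6.44 in PDGF-CC and at 6.75, 6.87 and 6.75 in PBS, a difference of -0.32 ± 0.11 (adjusted p = 0.769 by limma). PDGF-CC array 2 reached the PBS level and the other PDGF-CC arrays lay below it. The laminin alpha-2 chain gene Lama2 was at -0.19 ± 0.10, and the chloride channel gene Clcn2, whose product Mlc1 and Hepacam help to localise, was at 0.20 ± 0.11 (adjusted p = 0.769 by limma for each). For Clcn2 the difference was 0.12 once PDGF-CC array 4 was left out and 0.13 once PBS array 2 was.

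Among the other connexins and a pannexin, 2 of 7 had an unadjusted p under 0.05, against 6.04% of all probe sets. Both belong to the vessel wall. Gjc1, which encodes a connexin of mural cells, was at 7.45, 7.35, 7.70 and 7.56 in PDGF-CC and at 7.97, 7.63 and 7.87 in PBS. Of the mural markers, 10 of 10 for pericytes were lower on average after PDGF-CC and 4 of 5 for smooth muscle higher. The part of mural content in the Gjc1 values was not tested. Gja4, which encodes a connexin of endothelium, was at 8.61, 8.64, 8.49 and 8.71 in PDGF-CC and at 8.71, 9.13 and 8.82 in PBS. The differences were -0.31 ± 0.11 and -0.27 ± 0.11 (adjusted p = 0.769 by limma for each), and without PBS array 2 that of Gja4 was -0.15. Gja5, which encodes a connexin of arterial endothelium, was at 0.13 ± 0.066. The median of the 7 was -0.05, and it was 0.05 without PBS array 1 and 0.02 without PDGF-CC array 2. Glutamate and ion handling genes of astrocytes had a median of -0.03, with 3 of 10 positive and none at an unadjusted p under 0.05. Slc6a11, a GABA transporter gene, was at 0.17 ± 0.092, the glutamine synthetase gene Glul at -0.10 ± 0.076 and the bicarbonate cotransporter gene Slc4a4 at -0.10 ± 0.11. Single arrays moved these values, to 0.08 for Slc6a11 without PBS array 3 and to -0.03 for Glul without PBS array 1. For Slc4a4 the difference was -0.02 with either PDGF-CC array 1 or PBS array 1 left out and -0.16 without PDGF-CC array 3. Averaged over all its probe sets, Glul was at -0.02.

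**Figure D5:**
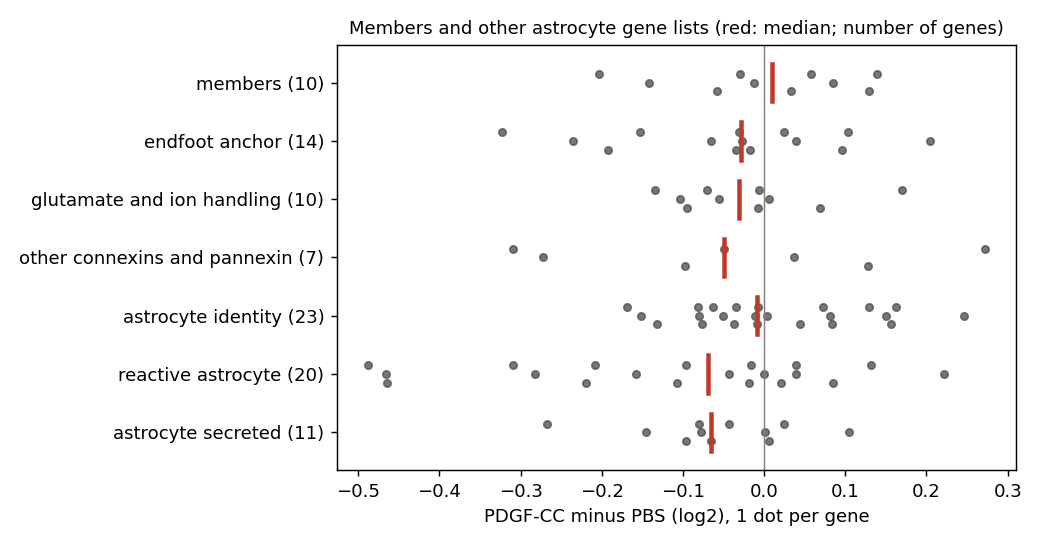
Difference between PDGF-CC and PBS on the log2 scale for each gene tested (1 dot per gene) in the endfoot genes and 6 other astrocyte lists, with the median of each list in red and the number of genes in brackets. All medians lie between -0.07 (reactive astrocyte) and 0.01 (the 10 endfoot genes).

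Astrocyte identity genes had a median of -0.01, with 10 of 23 positive and 0 at an unadjusted p under 0.05. Hes5, a Notch target in glia, was at 0.25 ± 0.12, Dio2, which activates thyroid hormone, at 0.16 ± 0.10 and the growth factor receptor gene Fgfr3 at 0.15 ± 0.092. They were at 0.16 without PBS array 3 (Hes5), 0.08 without PDGF-CC array 3 (Dio2) and 0.07 without PDGF-CC array 2 (Fgfr3), and Hes5 averaged over all its probe sets was at 0.10. Reactive astrocyte genes had a median of -0.07, with 6 of 20 positive, and the median was 0.007 with PBS array 2 left out and -0.12 with PBS array 3 left out. The secreted lipocalin gene Lcn2 was at 10.2, 10.5, 10.4 and 9.91 in PDGF-CC and at 10.9, 10.9 and 10.4 in PBS. PBS array 3 was lower than PDGF-CC arrays 2 and 3, so the groups overlapped. The difference was -0.47 ± 0.18 (adjusted p = 0.769 by limma), and it was the 1 gene of the list at an unadjusted p under 0.05. Cd44, a hyaluronan receptor gene, was at -0.46 ± 0.21, and without PBS array 1 at -0.29. Clcf1, a cytokine gene, was at 0.13 ± 0.068. Many genes of this list are also expressed by endothelium, fibroblasts or white blood cells, and which cells the RNA came from was not tested.

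Genes for factors that astrocytes secrete had a median of -0.07, with 4 of 11 positive and 1 at an unadjusted p under 0.05. This was Gpc6, a glypican gene, at 6.41, 6.06, 6.22 and 6.41 in PDGF-CC and 6.41, 6.58 and 6.64 in PBS. PBS array 1 was level with the highest PDGF-CC arrays. The difference was -0.27 ± 0.11 (adjusted p = 0.769 by limma). Gpc4, another glypican gene, was at -0.15 ± 0.080, or -0.09 without PDGF-CC array 2, and the Wnt ligand gene Wnt7b at -0.10 ± 0.077, -0.04 without PDGF-CC array 1. In all, 5 of the 85 genes in these lists had an unadjusted p under 0.05 by limma, where all probe sets gave 6.04% over both directions. The differences of these 5 were negative, but no share by direction was taken over all probe sets.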

How the data were processed

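The authors deposited log2 values of 33793 probe sets, 1 column per array; per the labels, 10 ng of RNA from each was amplified into biotin-labelled cDNA. The submitters' processing notes list limma, RMA and Affymetrix Expression Console; no settings or genome build are given there. RMA equalises the distribution of values between arrays, so a change in overall RNA amount is not seen. Arrays carry no read depth, and their number limits the precision.

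Probe sets that carried a symbol and exceeded the 30th percentile of mean value were fitted with lmFit and eBayes of limma 3.58.1 (R 4.3.3), PDGF-CC minus PBS without covariates, 2-sided, with Benjamini-Hochberg adjustment over 17734 probe sets. The fit was also run on simulated data with independent noise, without the values shared between arrays here. The outcome of that run is not used here. Symbols were updated through RefSeq gene identifiers (GRCm38.p6). Besides the 10 genes, the rule named the 3 genes of each other astrocyte list with the smallest p and the 5 nearest array patterns. Of the 93 entries of those lists, 87 matched a probe set of that single symbol. The genes and lists were chosen with earlier results of these data known. Figures used matplotlib 3.10.9.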

Additional observations from a re-analysis of the deposited data

Results flagged for a closer look

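In the 4 PDGF-CC arrays, 1 array stood far from the others for 1 of 28 genes and 2 of 17 list means, by the ratio of the gap to the whole range, above Dixon's 95% limit. About 1 in 20 such groups exceeds the limit by chance. For Fgfr3 the ratio was 1, since PDGF-CC arrays 1, 3 and 4 held the same value of 5.41 and array 2 was at 5.72. For the mean of the reactive astrocyte genes it was 0.851, with PDGF-CC array 4 at 7.88 and the others at 8.11 to 8.16. For the mean of the oligodendrocyte precursor markers it was 0.842, with PDGF-CC array 2 at 5.96 and the others at 5.62 to 5.68.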

How the results depend on the processing

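Of the 10 genes and of the 85 others in the astrocyte lists, 0 were called under any alternative. Over all probe sets, calls rose from 0 to 3 with a filter at the 50th percentile of brightness, with arrays centred on their median and with a trended and robust prior, to 2 with arrays shifted to equal endothelial markers and to 1 with repeated quantile normalization. Leaving out single arrays gave 0 to 1 calls, with 1 without PDGF-CC array 3, and 0 to 1 endfoot genes with groups that did not overlap, where 6.23% to 12.4% of all probe sets did not. Without 1 array, differences ran from -0.11 to 0.083 for Aqp4, -0.20 to -0.10 for Gja1, -0.10 to 0.055 for Gjb6, -0.069 to 0.14 for Slc1a2, -0.079 to 0.27 for Slc1a3, -0.27 to -0.10 for Gfap, -0.037 to 0.11 for Aldh1l1, 0.10 to 0.17 for Kcnj10, -0.13 to 0.036 for Dag1 and 0.04 to 0.24 for Mlc1. Elsewhere the sign turned for Aqp4 (0.016 with equal endothelial markers, 0.0061 with array weights), Gjb6 (0.0078 with array weights) and Dag1 (0.017 with description number as covariate). It also turned within numbers 1 to 4 for Slc1a2 (-0.14), Slc1a3 (-0.12), Aldh1l1 (-0.15) and Mlc1 (-0.025), and within 5 to 7 for Gfap (0.029); the cause was not tested. In all, 165 of 179 planned values of the 10 genes kept their sign, but some of these could not turn. The brightness filters, the trended and robust prior and the averaging of probe sets leave each difference unchanged. The replicate block gives the same differences as leaving out PDGF-CC array 4. Without 1 array, list medians ran from -0.031 to 0.066 for the 10 genes, -0.054 to -0.0059 for anchoring, -0.10 to 0.0071 for glutamate and ion handling, -0.086 to 0.054 for other connexins, -0.032 to 0.046 for identity, -0.12 to 0.0075 for reactive and -0.13 to -0.023 for secreted genes. Each gene of the 10 had 1 probe set, so averaging probe sets left the differences as they were.

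The titles number the samples of each group from 1. Deviations from the group means correlated at 0.163, 0.107 and 0.0844 for equal numbers. PBS arrays 1 and 2 each correlated best with the PDGF-CC array of their own number, but PBS array 3 with PDGF-CC array 4 (0.32). Whether samples of equal number belong together was not tested. With the replicate block, 0 probe sets and 0 of the 10 genes were called, with Gja1 at -0.14 and Gfap at -0.24, while Mlc1 fell to 0.043 and Dag1 moved to -0.13. That fit leaves PDGF-CC array 4, which has no partner, without weight.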
